A study of Mus musculus with 6 samples.

Results

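Caveolins, cavins and the proteins at the caveolar neck were followed in the gonadal fat pad, a white adipose tissue (gWAT), under normal chow (NCD) and high-fat (HFD) feeding. The set consisted of 7 of the 19790 genes in the count table, found by their NCBI gene identifiers: the caveolins Cav1 and Cav2, the cavins Cavin1, Cavin2 and Cavin3, and the neck proteins Ehd2 and Pacsin2. The genes were listed by name, with earlier results of these data known, and the rule itself uses no measured value. RNA-seq had been made from the gWAT of 6 wild-type C57BL/6 mice, 3 on NCD and 3 on HFD, with 1 library per mouse. Both diets were given for 8 weeks, and according to the labels feeding began at 6 weeks of age, whereas the study's methods give a later start. According to those methods the animals were male, and mice called wild type elsewhere in the study carry floxed Tmem86a alleles without Cre, so that the exact stock of these 6 mice is known only as the labels state it.

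Caveolae are small flask-shaped pits of the plasma membrane and are especially dense in adipocytes and endothelial cells. Caveolin-1 is inserted into the inner leaflet and forms oligomers, on which cavin-1 assembles the outer coat together with cavin-2 and cavin-3, while EHD2 forms a ring at the neck and PACSIN2 (syndapin-2) binds the curved membrane. In adipocytes caveolae hold signalling receptors and lipid transporters and flatten when the membrane is stretched, and loss of CAV1 or CAVIN1 in humans causes generalized lipodystrophy.

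Library depth was 49575113 to 66360046 counts. NCD replicate 1 stood apart from the other libraries, because 11 secretory genes of the seminal vesicle took 58.6% of its counts, against 11.2% in NCD replicate 2, 2.30% in NCD replicate 3 and a share near 0 in each HFD library. Its scaling factor by trimmed mean of M values (TMM) was 0.496, against 1.02 to 1.27 in the other libraries. The members' fold changes and ratios are therefore given with and without it. Without it the diets still differ in this RNA, with 11.2% and 2.30% in the 2 NCD libraries left and near 0 on HFD. The part of that remainder in the fold changes was not tested. Adipocyte markers were present in all libraries: the summed level of 8 genes (Adipoq, Plin1, Plin4, Lipe, Cidec, Fabp4, Lep and Pck1) was 3955 TMM-scaled CPM (counts scaled to a common library size) in NCD replicate 1 and 12414 to 21947 in the other 5. In bulk tissue, fewer cells of a type and less RNA per cell cannot be told apart.

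The members were deeply sequenced, with 2231 to 189213 counts per member and library, so that the spread between mice and not counting error limited precision. Together they took 0.0989% of the counts of NCD replicate 1 and 0.484% to 0.835% of those of the other libraries. Coordinates are on GRCm38 (mm10). Cav1 (gene 12389) lies at chr6:17306335-17341328 on the plus strand, and Cav2 (gene 12390) lies just upstream of it on the same strand at chr6:17281185-17289130. The cavins are dispersed, with Cavin1 (gene 19285) at chr11:100956736-100970617 on the minus strand, Cavin2 (gene 20324) at chr1:51289126-51302960 on the plus strand and Cavin3 (gene 109042) at chr7:105480616-105482197 on the minus strand. Ehd2 (gene 259300) lies at chr7:15946963-15967535 and Pacsin2 (gene 23970) at chr15:83375607-83464610, both on the minus strand. Cavin3 shares exon bases with Gm45667 on the opposite strand, and no source used here states whether counting used strand, so its reads could include those of Gm45667. The other 6 members share no exon bases with another annotated gene.

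Promoter sequences are shown for Cav1, Cav2 and Cavin1, the 3 members between which the results turn: the neighbouring caveolin genes on chromosome 6, and the coat gene on chromosome 11. RefSeq promoter windows on GRCm38.p6 matched 6 of the 7 members (Cav1, Cav2, Cavin1, Cavin2, Ehd2 and Pacsin2). Each sequence is the 250 bases before the first listed start, read 5′ to 3′ on the gene's strand, in lower case with motif matches in capitals. The windows are chr6:17306085-17306334 (plus strand) for Cav1, chr6:17280935-17281184 (plus strand) for Cav2 and chr11:100970618-100970867 (minus strand) for Cavin1.
Cav1: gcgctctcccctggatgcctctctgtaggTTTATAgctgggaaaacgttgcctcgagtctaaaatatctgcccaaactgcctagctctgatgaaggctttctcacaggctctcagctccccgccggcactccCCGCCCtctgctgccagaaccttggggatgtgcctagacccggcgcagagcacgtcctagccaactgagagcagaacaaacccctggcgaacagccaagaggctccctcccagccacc
Cav2: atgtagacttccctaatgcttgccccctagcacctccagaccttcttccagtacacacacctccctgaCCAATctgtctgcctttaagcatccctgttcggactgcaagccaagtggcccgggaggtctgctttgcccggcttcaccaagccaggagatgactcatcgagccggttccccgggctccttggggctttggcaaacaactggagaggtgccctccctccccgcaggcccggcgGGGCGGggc
Cavin1: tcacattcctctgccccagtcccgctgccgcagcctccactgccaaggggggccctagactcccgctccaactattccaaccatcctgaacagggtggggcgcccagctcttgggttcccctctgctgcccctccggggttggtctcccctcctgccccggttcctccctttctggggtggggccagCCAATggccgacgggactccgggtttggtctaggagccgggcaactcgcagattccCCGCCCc
The motifs searched on both strands were the GC box letters GGGCGG (other strand CCGCCC), the CCAAT box letters CCAAT (other strand ATTGG), the TATA box letters TATAAA (other strand TTTATA) and the nuclear receptor hexamer AGGTCA (other strand TGACCT). No match overlapped another in these 3 windows. All 3 windows held the GC box letters, at -118 on the other strand in Cav1, at -9 in Cav2 and at -7 on the other strand in Cavin1, counted from the start site to the first base of the match. These letters occurred in 32.7% of all 32851 promoter windows of the same length. The CCAAT letters stood at -182 in Cav2 and at -63 in Cavin1 (33.9% of all windows), and TATAAA stood on the other strand at -221 in Cav1 (12.4% of all windows). AGGTCA was in none of the 3 windows and in 14.0% of all windows. GC content was 59.6% for Cav1, 62% for Cav2 and 67.6% for Cavin1, against a median of 52.4% over all windows. Cav1 and Cavin1 each have another listed start, not shown. Its window held none of the 4 motifs for Cav1. For Cavin1 it held the GC box letters on the other strand at -9 and the CCAAT letters at -65. All these matches describe letters and say nothing about binding.

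The first comparison asked whether the level of each caveolar gene differed between the diets. With all 6 mice, 0 of the 7 members passed the threshold of 0.05 on the adjusted p of edgeR's quasi-likelihood test in either direction. The members also gave 0 at an unadjusted p under 0.05, against 29.7% of all genes tested, and 0 by DESeq2, in which their lowest adjusted p was 0.206. Over all 15241 genes tested, edgeR called 5.58% higher and 1.9% lower on HFD, and DESeq2 called 2153 genes higher and 1751 lower. Cavin1 was the only member whose diets did not overlap (higher on HFD), against 20.5% of all genes that did not overlap in that direction and 18.7% in the other. The median log2 fold change was -0.30 over the members and -0.08 over all genes tested.

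Without NCD replicate 1, which leaves 2 NCD libraries, Cav2 fell and no other member passed. Of the 7 members, 4 had an unadjusted p under 0.05, against 37.6% of all genes. Over the 15510 genes then tested, edgeR called 10.7% higher and 10.1% lower, so 1 call lower among 7 members was near the background. Cav1, Cav2, Cavin3 and Ehd2 were lower on HFD without overlap (29.1% of all genes) and Cavin1 was higher without overlap (27.9% of all genes). The median log2 fold change was then -0.41 over the members and 0.02 over all genes.

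**Figure D1:**
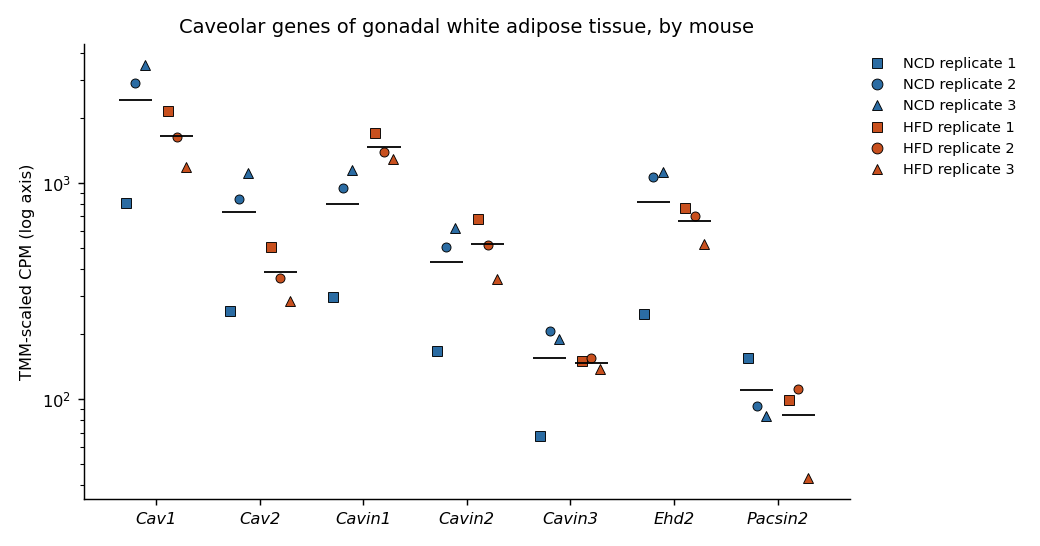
Level of each of the 7 caveolar genes in each mouse, as TMM-scaled CPM on a log axis, with NCD in blue and HFD in orange, 1 marker shape per replicate number and a bar at the mean of each diet (n = 3). NCD replicate 1 is the lowest point for 6 of the 7 genes and the highest for Pacsin2, and only Cavin1 has all 3 HFD mice above all 3 NCD mice.

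Cav1 encodes the principal caveolin of adipocytes and endothelium, without which caveolae do not form there. Its level was 807, 2897 and 3520 TMM-scaled CPM in NCD replicates 1 to 3 and 2144, 1634 and 1181 in HFD replicates 1 to 3. The HFD mice lay between NCD replicate 1 and the other NCD mice, so the diets overlapped only through that library. The means were 2408 ± 1421 on NCD and 1653 ± 481 on HFD (SD, n = 3 each), with a log2 fold change of -0.54 (SE 0.613) and an edgeR adjusted p of 0.579. The log2 fold change was -0.95 (SE 0.323) and the edgeR adjusted p 0.0908 without NCD replicate 1, and -0.15 (edgeR adjusted p 0.901) without NCD replicate 3.

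Cav2 encodes caveolin-2, which joins caveolin-1 in hetero-oligomers and depends on it to reach the plasma membrane. Its level was 255, 843 and 1110 TMM-scaled CPM in the NCD mice and 507, 364 and 286 in the HFD mice. The order of the mice was the same as for Cav1, with NCD replicate 1 below every HFD mouse. The log2 fold change was -0.93 (SE 0.557, edgeR adjusted p 0.306) with all mice. Without NCD replicate 1, Cav2 fell by 1.33 on the log2 scale (SE 0.284, edgeR adjusted p 0.0281), to 0.398 of the NCD level. The means in that comparison were 977 ± 189 TMM-scaled CPM on NCD (SD, 2 mice) and 386 ± 112 on HFD (SD, 3 mice).

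Cavin1 encodes the cavin that is required for the coat and for caveolae as such. Its level was 297, 947 and 1144 TMM-scaled CPM in the NCD mice and 1706, 1391 and 1297 in the HFD mice. Every HFD mouse was above every NCD mouse. The means were 796 ± 443 on NCD and 1465 ± 214 on HFD (SD, n = 3 each). The log2 fold change was 0.88 (SE 0.526, edgeR adjusted p 0.306) with all mice and 0.50 (SE 0.232, edgeR adjusted p 0.176) without NCD replicate 1. The difference was smaller without the lowest NCD library, and neither fit passed the threshold.

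Cavin2, also called SDPR, encodes a coat subunit that can bend membranes. It measured 168, 505 and 617 TMM-scaled CPM on NCD and 681, 518 and 359 on HFD. The HFD mice spanned the values of NCD replicates 2 and 3. Its log2 fold change was 0.27 (SE 0.516, edgeR adjusted p 0.746) with all mice and changed sign to -0.10 (edgeR adjusted p 0.835) without NCD replicate 1.

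Cavin3, also called PRKCDBP, encodes the coat subunit that binds protein kinase C delta. It measured 67.9, 207 and 190 TMM-scaled CPM on NCD and 150, 155 and 138 on HFD. The HFD mice lay close together (148 ± 8.83, SD, n = 3), below NCD replicates 2 and 3 and above NCD replicate 1. The log2 fold change was -0.07 (SE 0.411, edgeR adjusted p 0.922) with all mice and -0.41 (SE 0.121, edgeR adjusted p 0.0626) without NCD replicate 1. It took the opposite sign without NCD replicate 2 (0.19), without NCD replicate 3 (0.11) and with scaling by total counts (0.27).

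Ehd2 encodes the ATPase that forms a ring at the neck and stabilizes caveolae at the surface. It measured 247, 1069 and 1127 TMM-scaled CPM on NCD and 770, 702 and 520 on HFD. As for the caveolins, the HFD mice lay between NCD replicate 1 and the other NCD mice. The log2 fold change was -0.30 (SE 0.576, edgeR adjusted p 0.755) with all mice, -0.71 (SE 0.222, edgeR adjusted p 0.0732) without NCD replicate 1, 0.022 without NCD replicate 3 and 0.0049 with scaling by total counts.

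Pacsin2 encodes an F-BAR protein that senses and shapes curved membrane at the neck. It measured 154, 93.0 and 83.5 TMM-scaled CPM on NCD and 99.2, 111 and 43.2 on HFD. It was the only member with its highest value in NCD replicate 1, and otherwise the diets were intermixed. The log2 fold change was -0.38 (SE 0.416, edgeR adjusted p 0.564) with all mice, -0.05 (edgeR adjusted p 0.941) without NCD replicate 1 and 0.25 with scaling by total counts. Epithelial markers summed to 1189 TMM-scaled CPM in NCD replicate 1 against 16.9 to 120 in the other libraries, and smooth muscle and pericyte markers to 5897 against 441 to 1043. Their part in the Pacsin2 value was not tested.

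**Figure D2:**
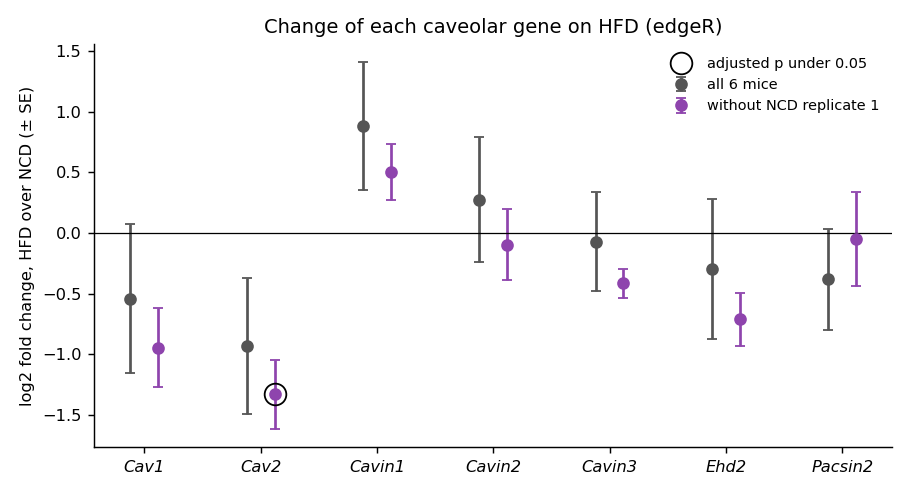
Log2 fold change of each caveolar gene, HFD over NCD, from edgeR, with bars of 1 SE, for all 6 mice (grey) and without NCD replicate 1 (purple), and a ring at an adjusted p under 0.05. The ring is at Cav2 without NCD replicate 1 (-1.33), Cavin1 lies above 0 in both fits, and the bars are shorter without NCD replicate 1.

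Levels of different members were compared as CPM per kilobase of exon, taken as the union of each gene's annotated exons, and their order depends on that length. Cav1 was the most abundant member and Pacsin2 the least in all 6 mice, and Cavin3 was sixth in all 6. Cav1 measured 938 and 1139 CPM per kilobase in NCD replicates 2 and 3 and 382 to 694 on HFD. On HFD the order began Cav1, Cavin1, Cavin2 in each of the 3 mice, with Cav2 and Ehd2 next in either order. On NCD, Cavin1 and Cav2 held the places after Cav1, with Cavin1 ahead in replicates 1 and 2 and Cav2 ahead in replicate 3, and Ehd2 and Cavin2 came next in either order. Neighbours that traded places between mice of a diet were not separated beyond the spread: Cavin1 and Cav2 or Ehd2 and Cavin2 on NCD, and Cav2 and Ehd2 on HFD.

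The second comparison asked whether the proportions of the coat differed between the diets. The ratio of 2 genes within a library does not depend on scaling between libraries or on dilution by RNA that contains neither gene. Among the 6 ratios set for this purpose, 4 did not overlap between the diets. For ratios to Cav1, 16.8% of all genes did not overlap, and for ratios to Cavin1, 55.3% of all genes did not. With all 6 mice, a ratio to Cavin1 that separated the diets was thus common across the transcriptome, while separation in a ratio to Cav1 was less so. Both shares include NCD replicate 1, the library with the lowest level of either gene, and neither was computed without it. When ratios were tested over all genes with edgeR and without that library, 45.6% of genes were called for Cav1 and 29.6% for Cavin1. Whether the lower share for Cav1 depends on NCD replicate 1 was not tested. The exact two-sided permutation test of 3 mice against 3 cannot give a p below 0.1, so the p of a single ratio by this test could not reach 0.05.

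Cavin1 per Cav1 was 0.326, 0.289 and 0.288 in the NCD mice and 0.704, 0.754 and 0.972 in the HFD mice, per kilobase of each gene's exons. The 3 NCD mice lay close together, including the replicate rich in seminal vesicle RNA, and every HFD mouse was above them. The ratio was 2.67-fold higher on HFD, a log2 difference of 1.42 (SE 0.153, n = 3 each, exact two-sided permutation p = 0.1, Benjamini-Hochberg 0.15 over 6 ratios). Leaving out any 1 mouse gave log2 differences of 1.28 to 1.51, and without NCD replicate 1 the ratio was 2.78-fold higher. When the ratio to Cav1 was tested over all genes with edgeR, the log2 difference was 1.43 (SE 0.553, adjusted p 0.262) with all mice. It passed without NCD replicate 1, at 1.49 (SE 0.374, adjusted p 0.00161). In that test 0.112% of all genes were called with all mice and 45.6% without NCD replicate 1, so a call in the second fit was shared with a large part of the transcriptome.

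Cav2 per Cav1 was 0.293, 0.270 and 0.292 on NCD and 0.219, 0.206 and 0.224 on HFD. The spread was small within each diet and the diets did not overlap, with the HFD mice at 0.760 of the NCD ratio, a log2 difference of -0.40 (SE 0.0527, n = 3 each, exact two-sided permutation p = 0.1, Benjamini-Hochberg 0.15). Leaving out any 1 mouse gave -0.43 to -0.36. Tested over all genes, whose spread edgeR shares, the ratio did not pass (adjusted p 1.0 with all mice and 0.380 without NCD replicate 1).

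Ehd2 per Cav1 was 0.185, 0.223 and 0.193 on NCD and 0.217, 0.259 and 0.266 on HFD. The diets overlapped by 1 mouse each, and the log2 difference was 0.30 (SE 0.123, exact two-sided permutation p = 0.2, n = 3 each, Benjamini-Hochberg 0.24), or 0.25 without NCD replicate 1. Pacsin2 per Cav1 was 0.153, 0.0257 and 0.0190 on NCD and 0.0371, 0.0546 and 0.0293 on HFD. NCD replicate 1 decided this ratio, whose log2 difference was -0.11 (exact two-sided permutation p = 1, n = 3 each) with all mice and 0.82 without that library. Tested over all genes with edgeR, neither ratio passed with all mice (adjusted p 1.0 and 0.976) or without NCD replicate 1 (adjusted p 0.560 and 0.0867).

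Within the cavins, Cavin2 per Cavin1 was 0.646, 0.609 and 0.616 on NCD and 0.456, 0.426 and 0.317 on HFD. Every HFD mouse was below every NCD mouse, at 0.633 of the NCD ratio, a log2 difference of -0.66 (SE 0.164, n = 3 each, exact two-sided permutation p = 0.1, Benjamini-Hochberg 0.15). The log2 difference was -0.63 without NCD replicate 1. Cavin3 per Cavin1 was 0.480, 0.460 and 0.349 on NCD and 0.185, 0.234 and 0.223 on HFD. The diets again did not overlap, with a log2 difference of -0.999 (SE 0.177, n = 3 each, exact two-sided permutation p = 0.1, Benjamini-Hochberg 0.15), or -0.91 without NCD replicate 1. Tested over all genes with edgeR, where 0.236% of genes were called with all mice, the adjusted p was 0.276 for Cavin2 and 0.131 for Cavin3. Without NCD replicate 1, where 29.6% of genes were called, Cavin3 per Cavin1 passed (adjusted p 0.0207) and Cavin2 per Cavin1 did not (adjusted p 0.0822). In all 3 HFD mice Cavin1 thus stood higher relative to Cavin2, to Cavin3 and to Cav1 than in any NCD mouse.

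**Figure D3:**
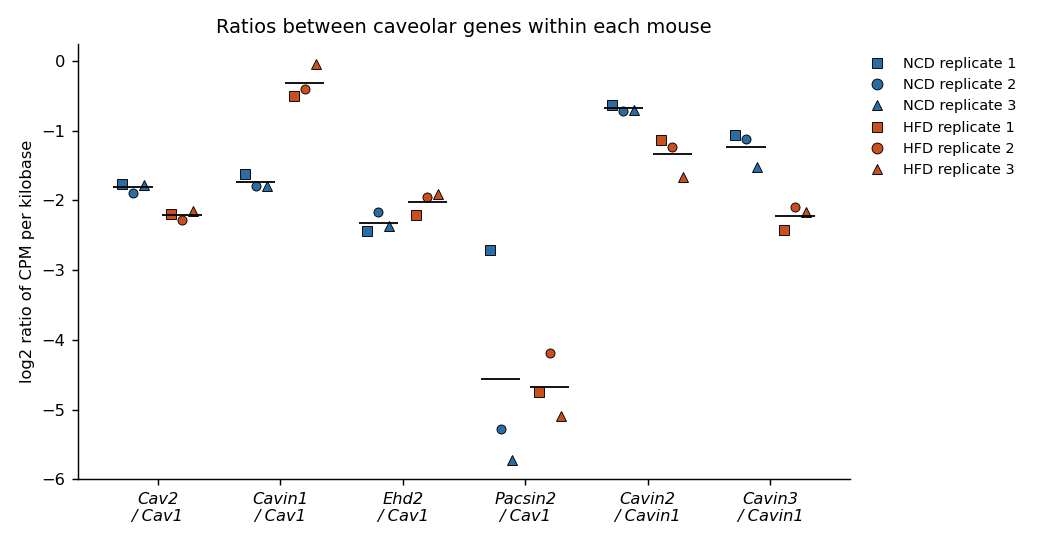
Log2 ratio of CPM per kilobase between members within each mouse, for the 6 ratios set, with NCD in blue, HFD in orange, 1 marker shape per replicate number and a bar at the mean of each diet (n = 3). The diets are apart for Cav2 and Cavin1 over Cav1 and for Cavin2 and Cavin3 over Cavin1, and NCD replicate 1 sits with its group in each of these 4.

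Of all 21 pairs of members, 11 had ratios that did not overlap between the diets, against 40.5% of all pairs of tested genes. Cavin1 was in 5 of the 11, and Cav2 was in as many. A further pair described after its values were seen was Cavin2 per Cav1, at 0.210, 0.176 and 0.177 on NCD and 0.321, 0.321 and 0.308 on HFD. The sum of the 3 cavins per sum of both caveolins, also chosen after the values were seen, was 0.536, 0.471 and 0.437 on NCD and 0.949, 1.04 and 1.22 on HFD. Summed caveolin transcripts exceeded summed cavin transcripts per kilobase in each NCD mouse and in HFD replicate 1, and cavin transcripts were in excess in HFD replicates 2 and 3. Exon length was the union over 5 annotated transcripts for Cav1, 3 for Cav2 and 1 for each cavin. Which class was in excess on HFD depends on that length, while the difference between the diets in a ratio of 2 genes does not.

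As shares of the summed CPM per kilobase of the 7 members, Cav1 made up 43.0%, 47.2% and 48.3% on NCD and 38.0%, 36.1% and 33.2% on HFD. Cavin1 made up 13.9% ± 0.180 on NCD and 28.7% ± 3.02 on HFD (SD, n = 3 each). Cav2 made up 13.2% ± 0.836 on NCD and 7.74% ± 0.512 on HFD, and Cavin2 8.65% ± 0.375 and 11.3% ± 1.03. The diets did not overlap for these 4 members. Of all tested genes, 17.7% did not overlap relative to the same sum. That sum was 607 CPM per kilobase in NCD replicate 1, against 1985 and 2358 in the other NCD mice. The members make up the sum and other genes do not, so the 17.7% is not a like-for-like background. They overlapped for Cavin3 (5.96% ± 0.982 and 6.17% ± 1.13), for Ehd2 (9.27% ± 1.28 and 8.80% ± 0.555) and for Pacsin2, which ranged from 0.918% to 6.60% on NCD and from 0.971% to 1.97% on HFD. Shares of a sum are not independent, since a higher share of one member lowers the others.

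**Figure D4:**
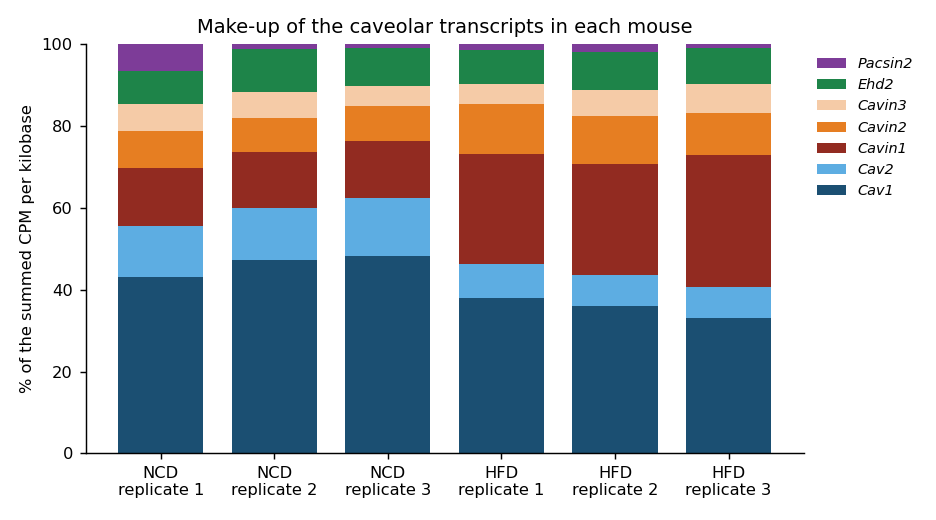
Stacked bars of the share of each member in the summed CPM per kilobase of the 7 caveolar genes, in percent, with 1 bar per mouse. The Cavin1 share is 13.7% to 14.0% in the NCD mice and 26.8% to 32.2% in the HFD mice, and the Pacsin2 share of 6.60% in NCD replicate 1 is the largest of the 6.

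The members were next set against the summed markers of adipocytes and of endothelial cells. Smooth muscle and pericyte markers were not used in this way. They summed to 5897, 1043 and 651 TMM-scaled CPM on NCD and to 640, 508 and 441 on HFD. Cav1 amounted to 20.4%, 18.1% and 16.0% of the summed adipocyte markers on NCD and to 13.7%, 9.84% and 9.51% on HFD. Cav2 amounted to 6.45%, 5.28% and 5.06% on NCD and to 3.24%, 2.19% and 2.30% on HFD. Cavin1 amounted to 7.51%, 5.93% and 5.21% on NCD and to 10.9%, 8.38% and 10.4% on HFD. Relative to this sum, Cav1, Cav2 and Ehd2 were lower on HFD without overlap, Cavin1 was higher without overlap, and Cavin2, Cavin3 and Pacsin2 overlapped. Of all other tested genes, 5.6% were higher and 10.4% lower relative to this sum without overlap. The sum itself was 3955 TMM-scaled CPM in NCD replicate 1 and at least 12414 in each other library. These shares were not computed without NCD replicate 1. The 8 markers differed among themselves, with log2 fold changes from -0.75 (Plin1) to 1.25 (Lep), 3 above 0 and 5 below with all mice. These comparisons hold for the sum and were not made for single markers.

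The 8 endothelial markers summed to 291, 837 and 946 TMM-scaled CPM on NCD and to 1116, 990 and 1017 on HFD, a pattern across mice that resembles that of Cavin1. Of these markers, 0 were called by edgeR, 1 had an unadjusted p under 0.05 (29.7% of all genes) and DESeq2 called 1 higher. With all mice, 7 of the 8 had a log2 fold change above 0. Without overlap, 5 were higher on HFD and 0 lower, against 20.5% and 18.7% of all genes. Relative to the endothelial sum, Cavin1 was again higher on HFD without overlap (102% to 121% on NCD, 127% to 153% on HFD), while Cav1, Cav2, Cavin3 and Ehd2 were lower without overlap. Relative to that sum 5.45% of all other tested genes were higher and 41.8% lower without overlap, so 4 of 7 members lower was near the background. Of the 8 adipocyte markers, 0 were called by edgeR, 0 had an unadjusted p under 0.05 and DESeq2 called 0. After NCD replicate 1 was left out, edgeR called 2 adipocyte markers lower (10.1% of all genes) and 2 endothelial markers higher (10.7% of all genes). Of the 8 adipocyte markers, 7 then had a log2 fold change below 0 and 1 above. Without overlap, 5 of the adipocyte markers were lower and 0 higher, against 29.1% and 27.9% of all genes. In the same 5 mice, 1 endothelial marker was lower and 5 were higher without overlap.

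Macrophage markers moved with the diets, from 341 to 749 summed TMM-scaled CPM on NCD to 1672 to 3232 on HFD, with 3 of 8 called higher by edgeR (Trem2, Cd68 and Adgre1) and 7 of 8 without NCD replicate 1. Of the other lists, edgeR called 1 of 6 stromal and 1 of 4 mesothelial markers higher with all mice. In these 2 lists, 4 and 1 had an unadjusted p under 0.05, and DESeq2 called 4 and 1 higher. Over all genes tested it called 5.58% higher and 1.9% lower, and 29.7% had an unadjusted p under 0.05. Without NCD replicate 1 it called 10.7% of all genes higher. Stromal markers summed to 806 to 1662 on NCD and 1620 to 2228 on HFD, and mesothelial markers to 76.5 to 201 and 125 to 389. Epithelial (6 genes), smooth muscle and pericyte (7 genes) and skeletal muscle markers (1 tested of 4) had 0 calls by edgeR, with 5, 4 and 1 at an unadjusted p under 0.05 and 5, 4 and 1 called lower by DESeq2. Skeletal muscle markers summed to 390 TMM-scaled CPM in NCD replicate 1 and 2.99 to 39.6 in the other libraries, and edgeR called 9 of the 11 seminal vesicle genes lower on HFD. The part of these cells in the caveolar ratios was not tested.

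The paralogs of the members and other genes of the same membrane domains were taken from a list of 10 genes, of which 9 were tested. With all mice edgeR called 1 of these higher and 1 lower, against 5.58% and 1.9% of all genes tested. The median log2 fold change of the 9 was 0.33, or 0.21 without NCD replicate 1. Ehd4, a relative of Ehd2 that acts on endosomes, measured 51.9, 82.5 and 63.8 TMM-scaled CPM on NCD and 225, 196 and 275 on HFD. Every HFD mouse was far above every NCD mouse, and Ehd4 rose by 1.81 on the log2 scale (SE 0.243, edgeR adjusted p 0.0219 with all mice and 0.00891 without NCD replicate 1). Pacsin3, the syndapin best known from muscle, measured 34.3, 28.4 and 33.0 on NCD and 8.08, 13.8 and 8.89 on HFD. All HFD mice were below all NCD mice, and Pacsin3 fell by 1.64 on the log2 scale (SE 0.248, edgeR adjusted p 0.0240 with all mice and 0.0148 without NCD replicate 1). Without any 1 of the other 5 mice (NCD replicate 2 or 3, or HFD replicate 1, 2 or 3) neither passed, with edgeR adjusted p of 0.0585 to 0.0971 for Ehd4 and 0.0598 to 0.109 for Pacsin3. Per kilobase, Ehd4 per Ehd2 was 0.288, 0.106 and 0.0777 on NCD and 0.400, 0.382 and 0.726 on HFD, and Pacsin3 per Pacsin2 was 0.374, 0.515 and 0.664 on NCD and 0.137, 0.209 and 0.346 on HFD, both without overlap and both described after their values were seen.

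The muscle and neural relatives were nearly absent. Cav3, the caveolin of striated muscle, had 6, 0 and 2 counts on NCD and 6, 2 and 18 on HFD and was not tested. Cavin4, the muscle cavin, was at 0.255 to 0.578 TMM-scaled CPM, and Pacsin1, the neuronal syndapin, at 0.260 to 0.730. Ehd1, Ehd3, Dnm2 (dynamin 2, the scission GTPase), Flot1 and Flot2 (flotillins of other lipid rafts) did not pass the test with all mice or without NCD replicate 1.

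**Figure D5:**
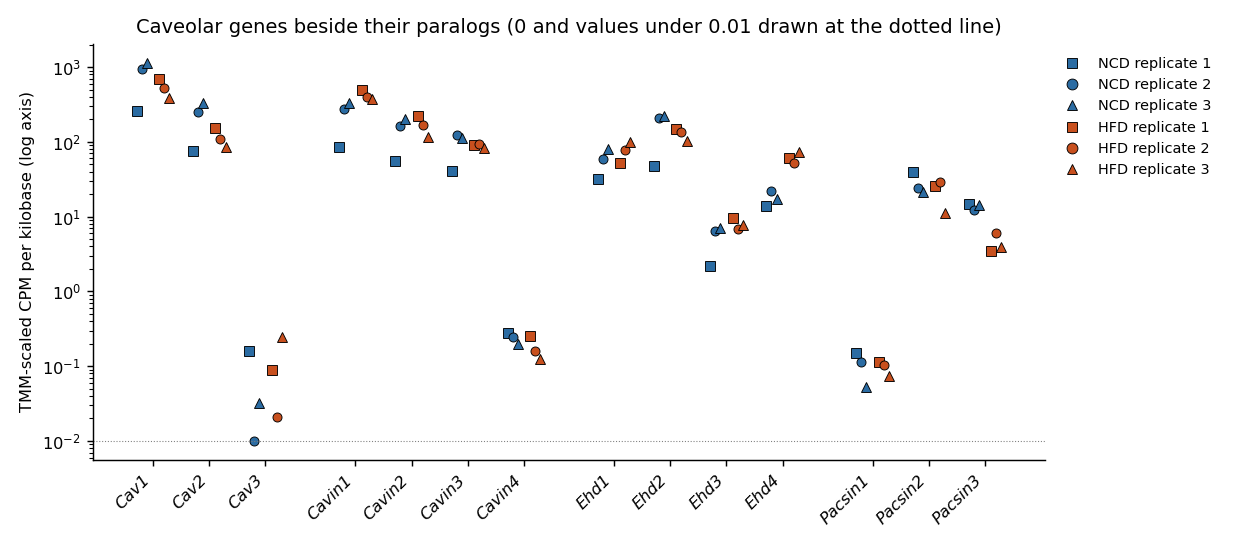
Level of the caveolin, cavin, EHD and syndapin genes in each mouse, as TMM-scaled CPM per kilobase on a log axis, grouped by family, with NCD in blue, HFD in orange and 1 marker shape per replicate number. Cav3, Cavin4 and Pacsin1 lie below 1 in every mouse, Ehd4 is higher and Pacsin3 lower in all 3 HFD mice, and the Ehd2 values of the diets overlap.

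The proteins that reside in or act on caveolae were described by 7 genes (Insr, Cd36, Slc2a4, Aoc3, Nos3, Src and Ror1). With all mice edgeR called 0 of these, 2 had an unadjusted p under 0.05 (Slc2a4 and Ror1), and DESeq2 called those 2. Of all genes tested, 29.7% had an unadjusted p under 0.05 by edgeR. Without NCD replicate 1, edgeR called 2 of the 7 lower, against 10.1% of all genes. Nos3, the endothelial nitric oxide synthase that caveolin-1 binds, measured 22.9, 92.6 and 88.5 TMM-scaled CPM on NCD and 27.4, 31.5 and 30.6 on HFD. The HFD mice lay just above NCD replicate 1 and far below the other NCD mice (log2 fold change -1.19, edgeR adjusted p 0.178 with all mice, and -1.59, adjusted p 0.00544, without that library). Slc2a4, the insulin-regulated glucose transporter GLUT4, measured 68.9, 224 and 276 on NCD and 79.1, 75.5 and 43.6 on HFD, with a log2 fold change of -1.52 (edgeR adjusted p 0.125) with all mice and -1.91 (adjusted p 0.0112) without NCD replicate 1.

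Agpat2 and Bscl2 are, with CAV1 and CAVIN1, the genes of congenital generalized lipodystrophy, and encode an acyltransferase of triglyceride synthesis and the lipid droplet protein seipin. With all mice edgeR called 0 of these 2, both had an unadjusted p under 0.05 (29.7% of all genes) and DESeq2 called both lower. Agpat2 measured 214, 1407 and 1096 TMM-scaled CPM on NCD and 174, 147 and 71.3 on HFD, with no overlap even with NCD replicate 1 (log2 fold change -2.79, edgeR adjusted p 0.0738). Bscl2 measured 107, 337 and 393 on NCD and 99.9, 135 and 111 on HFD, with NCD replicate 1 among the HFD mice (log2 fold change -1.27, edgeR adjusted p 0.143). Both passed when that library was left out, with log2 fold changes of -3.25 for Agpat2 (edgeR adjusted p 0.00829) and -1.65 for Bscl2 (adjusted p 0.00667). In the same 5 mice the log2 fold changes were -0.95 for Cav1 and 0.50 for Cavin1, neither past the threshold.

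Finally, the genes whose levels across mice were most like those of Cav1 were found by Pearson's r of log2(TMM-scaled CPM + 0.5), as a description over mice that share the same libraries and depths. Over 6 mice and 9893 genes the nearest included Zfand3, Acsl1, Rgs5 and Coq5, each at r of 0.997 to 0.998. Acsl1, the long-chain acyl-CoA synthetase of adipocytes, measured 655, 1956 and 2123 TMM-scaled CPM on NCD and 1463, 1150 and 873 on HFD. Rgs5 is 1 of the 7 smooth muscle and pericyte markers, which did not move together. It was lowest in NCD replicate 1, at 89.9 TMM-scaled CPM, where the sum of the 7 was highest (5897). Of the 7 log2 fold changes, 6 were below 0 (-0.44 for Rgs5) and 1 above (0.71 for Pdgfrb). Among the members, r with Cav1 was 0.97 for Cav2, 0.96 for Ehd2, 0.89 for Cavin3, 0.85 for Cavin2, 0.57 for Cavin1 and -0.14 for Pacsin2. Over the 5 mice without NCD replicate 1 (9684 genes) the nearest were Ndrg3, Atxn10, Nadk2, Plcg1 and Negr1, at 0.999 to 1.000. Over those 5 mice Cav2 and Ehd2 were both at 0.99, Cavin3 at 0.88, Cavin2 at 0.69, Pacsin2 at 0.53 and Cavin1 at -0.46. With or without that library, Cav2 and Ehd2 tracked Cav1 most closely among the members, and Cavin1 was 1 of the 2 members that tracked it least.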

How the data were processed

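RNA-seq libraries (TruSeq mRNA, NovaSeq) of gWAT from 6 mice were analysed, 3 per diet. The authors deposited raw read counts per gene, 1 column per mouse, without normalization. The submitters' processing notes name bcl2fastq 2.20.0, Trimmomatic, HISAT2 2.1.0, StringTie 1.3.4d, DESeq2 and the builds mm10 and GRCm38, with no role or order. No source used here states the annotation or the strand setting of counting. The column of HFD replicate 3 carries the number 4, as its label does. Symbols were found for 19742 of 19790 identifiers. The other 48 held 0.629% of the counts. Exon lengths (union of GENCODE vM21 exons) were found for 17793 genes.

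The quasi-likelihood test of edgeR 4.0.16 in R 4.3.3 (glmQLFit, glmQLFTest) was run on TMM-scaled counts of the genes that filterByExpr kept (minimum count of 10 and total of 15), 15241 in all and 15510 without NCD replicate 1. P-values were adjusted over these genes (Benjamini-Hochberg, threshold 0.05). As SE, the log2 fold change over the root of F is given. The common biological coefficient of variation was 0.424. DESeq2 1.42.0, other scalings, no filter, a replicate block and leaving out each mouse were alternatives. Scripts were tested on simulated data. Single ratios used an exact two-sided permutation test over mice (scipy 1.17.1). P-values measure the spread between these mice, labelled biological replicates.

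Members, relatives, cargo, lipodystrophy and marker lists were chosen with earlier results of these data known. Values are given by rule for the members, for listed genes past the threshold with all mice or without NCD replicate 1 or under 1 CPM, for markers that moved with a result, and for the 5 genes nearest to Cav1 among tested genes with a mean of at least 10 TMM-scaled CPM, of which 1 is not reported here. The edgeR test of ratios over all genes, with the count of Cav1 or Cavin1 as library size, and the ratios to marker sums were added after seeing the data. Dnm2, Flot1, Flot2 and other listed genes that did not pass are named without values.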

Additional observations from a re-analysis of the deposited data

How the results depend on the processing

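Cav1 and Cavin1 kept their sign and stayed uncalled under every alternative run, with log2 fold changes of -0.95 to -0.15 and 0.50 to 1.25 when each mouse was left out in turn. Scaling by total counts, which moved the median log2 fold change of all genes from -0.08 to 0.45, gave 0.27 for Cavin3, 0.0049 for Ehd2, 0.25 for Pacsin2, 0.11 for Cavin4, 0.51 for Pacsin1, 0.25 for Insr and 0.071 for Src, each with the opposite sign, and 1 call in place of 2 among the relatives and cargo genes. DESeq2 made 4 calls there, and called 2153 genes higher and 1751 lower over the whole table. Same-numbered mice did not deviate together (r of -0.05, -0.03 and -0.005), and no NCD mouse correlated best with its own number. No pairing by number was thus detected, although a check on 3 mice per diet cannot exclude one. With a replicate block, which called 5 genes higher and 7 lower in place of 850 and 289, Cavin3 was 0.075 and 0 relatives and cargo genes were called. When each mouse was left out in turn, the log2 fold change ranged from -1.33 to -0.50 for Cav2, from -0.10 to 0.64 for Cavin2, from -0.41 to 0.19 for Cavin3 and from -0.71 to 0.022 for Ehd2, members called lower from 0 to 1 and relatives and cargo calls from 0 to 4. The Pacsin2 to Cav1 log2 ratio ranged from -0.69 to 0.82. The other listed genes that changed sign in this way were Pacsin1 (-0.43 to 0.21), Cd36 (-0.17 to 0.71), Aoc3 (-0.78 to 0.036) and Src (-1.16 to 0.33). Tested over all genes without NCD replicate 1, a setting chosen after seeing the data, the log2 ratios to Cav1 were 0.85 for Pacsin2 and 1.49 for Cavin1, and Cavin3 to Cavin1 was -0.92, the last 2 past the threshold. Where a sign changed, the cause was not tested.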
